A study of Homo sapiens with 3 samples.

Results

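The genes described here are PARP9, DTX3L, PARP14, PARP12 and PARP10, which are 5 of the 19775 genes named on the arrays. They are interferon-inducible members of the ADP-ribosyltransferase (PARP) family together with DTX3L, the partner protein of PARP9. All 10 probe sets that the platform annotation assigns to exactly 1 of these genes were used, with no filter on expression. The genes were chosen on measured values, because PARP9 and DTX3L read higher with hairpin 2 than in the control. Their values are therefore given as a description, with no test.

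The arrays were hybridised with RNA from HCT116, an established human colorectal carcinoma line. One array (Scr_shRNA) measured cells carrying a scrambled short hairpin RNA. The others measured cells carrying UHRF1 shRNA-2 or UHRF1 shRNA-5, named hairpin 2 and hairpin 5 below. All 3 cultures, the control included, had been infected with hairpin-carrying lentivirus and kept for 6 days under puromycin. UHRF1 recognises hemimethylated DNA and helps to maintain DNA methylation, and the study asked which transcripts depend on it. Each condition has 1 array, so no difference between a hairpin and the control has a replicate check, and both differences share the same control array. The labels do not say whether the cells were a pool or a clone. On an array of bulk RNA, more transcript in every cell and a larger share of responding cells cannot be told apart.

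UHRF1 itself read 8.54 in the control, 6.20 with hairpin 2 and 6.67 with hairpin 5 (log2 values, as are all levels below). It was 5.09-fold below the control with the former and 3.68-fold with the latter. Of 9 markers of colorectal epithelium, 8 reached the level set for testing (log2 3.28), with EPCAM between 9.93 and 10.2 and KRT18 between 12.1 and 12.5. KRT20, a keratin of differentiated intestinal cells, did so only through hairpin 2 (2.77 in the control, 5.62 with hairpin 2 and 2.64 with hairpin 5), and the cadherin gene CDH1 was 0.98 higher with hairpin 2. VIL1 read 3.11 to 3.13, below the level set for testing, and CEACAM5 3.54 to 3.98. Of the 5 leukocyte markers with a probe set, 0 reached that level and all read between 2.51 and 3.09, close to the array medians of 2.98 to 3.04. Their differences from the control lay between −0.17 and 0.24. Of 5 fibroblast markers 2 reached it, COL1A1 (5.75 to 6.39) and PDGFRB (3.49 to 3.92). So did 1 of 4 endothelial markers and 2 of 3 of plasmacytoid dendritic cells, which read at most 3.60 and 3.68.

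PARP enzymes transfer ADP-ribose from NAD+ to proteins or nucleic acids, either as single units or as chains. Interferons induce a subset of the family through the factor ISGF3, in which IRF9 contacts DNA. This factor binds a DNA motif called the interferon-stimulated response element (ISRE). PARP9 carries macrodomains that bind ADP-ribose and forms a complex with DTX3L, a ubiquitin ligase of the Deltex family. PARP14, PARP12 and PARP10 add single ADP-ribose units, and several of them have been linked to restriction of virus replication and to cytokine signalling.

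PARP9, DTX3L and PARP14 lie together on chromosome 3 (GRCh38.p14), with PARP15 between DTX3L and PARP14. PARP12 lies on chromosome 7. The annotated starts of DTX3L (position 122564338, plus strand) and PARP9 (122564300, minus strand) are 38 bases apart and point away from each other. A stretch around the start of each member on chromosomes 3 and 7 is shown because each one holds a match to the ISRE core close to the start site. The stretches run from 60 bases before the start to 20 bases from the start on, 5′ to 3′ on the strand of the gene named, from RefSeq. Capitals mark the match to the ISRE core GAAANNGAAA, searched on both strands. In the DTX3L stretch, the bases after position 122564300 lie before the PARP9 start when read on the other strand.

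DTX3L (chr3:122564278-122564357, plus strand): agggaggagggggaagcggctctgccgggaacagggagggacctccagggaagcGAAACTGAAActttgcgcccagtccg
PARP14 (chr3:122680779-122680858, plus strand): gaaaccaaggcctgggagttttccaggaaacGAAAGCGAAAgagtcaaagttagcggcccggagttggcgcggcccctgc
PARP12 (chr7:140062932-140063011, minus strand): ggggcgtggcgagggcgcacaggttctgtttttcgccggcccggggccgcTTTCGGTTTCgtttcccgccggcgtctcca

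The match shared by PARP9 and DTX3L, GAAACTGAAA, spans chr3:122564332-122564341. It begins 6 bases before the DTX3L start and, read from the other side, 41 bases before the PARP9 start. That of PARP14, GAAAGCGAAA, begins 29 bases before its start. In PARP12 the match, GAAACCGAAA on the opposite strand, begins 10 bases before the start. Across all 34943 promoter windows of the same length (250 bases before to 50 after a start), 3.57% held the ISRE core on either strand.

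The promoter of PARP10 was not examined here. PARP9 has a second annotated start further upstream, and the window there held no match. PARP15, the neighbour inside the cluster, held none in either of its windows. A second motif of interferon-responsive promoters, the gamma-activated site TTCNNNGAA, was present in 7.66% of all windows. Among these genes it occurred in PARP14 (TTCCAGGAA, beginning 40 bases before the start) and in 1 window of PARP15 (TTCAGAGAA), and in no window of PARP9, DTX3L or PARP12. Neither motif overlapped the other. The windows held 20 CpG dinucleotides for DTX3L, 29 and 6 for the starts of PARP9, 19 for PARP14 and 35 for PARP12, against a median of 14 over all windows. DNA methylation was not measured here.

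With hairpin 2, 4 of the members exceeded the control by at least 2-fold (PARP9, DTX3L, PARP12 and PARP14), and with hairpin 5 none did (0 of 5). These counts use the brightest probe set of each gene, by its mean over the 3 arrays. By that mean, 5 of the 5 members reached the level set for testing. Over all genes on the arrays, 0.728% were at least 2-fold higher with hairpin 2 and 0.152% with hairpin 5. The median difference of the members was 1.56 with hairpin 2 and 0.01 with hairpin 5, while that of all genes was 0.00 with both. Since hairpin 2 against the control was the contrast that chose these genes, nothing is read from the first count.

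PARP9 read 4.03 in the control, 7.23 with hairpin 2 and 4.31 with hairpin 5 on its brighter probe set (223220_s_at). The hairpin 2 array stood apart, and hairpin 5 lay close to the control. Relative to the control, hairpin 2 gave a 9.25-fold and hairpin 5 a 1.22-fold higher level, and the hairpins differed from each other by 2.93 on the log2 scale. Averaged over the hairpins the difference was 1.75 ± 2.07 (SD, n = 2 hairpins), and without hairpin 2 it was 0.28. By its difference with hairpin 2, PARP9 ranked 13 from the top of all 19775 genes.

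The second PARP9 probe set (227807_at) stayed near the bulk of the arrays. It read 2.88 in the control, 3.28 with hairpin 2 and 2.95 with hairpin 5, a difference of 0.40 with hairpin 2 and 0.06 with hairpin 5. Both probe sets had their highest value with hairpin 2, by very different amounts, and as the mean of both the hairpin 2 difference was 1.80.

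DTX3L, the ubiquitin ligase that pairs with PARP9, has a single probe set (225415_at). It read 4.99 in the control, 7.62 with hairpin 2 and 4.88 with hairpin 5. Only the hairpin 2 array was high, 6.18-fold above the control, while hairpin 5 was 0.12 below it on the log2 scale. The hairpins differed by 2.75, and the mean difference was 1.26 ± 1.94 (SD, n = 2 hairpins). Without hairpin 2 that mean turned to −0.12. DTX3L ranked 21 from the top with hairpin 2, and 13198 with hairpin 5.

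PARP12, a mono-ADP-ribosyltransferase with CCCH zinc fingers, also has a single probe set (218543_s_at). Its values were 5.69 in the control, 7.24 with hairpin 2 and 5.63 with hairpin 5. With hairpin 2 it was 2.94-fold higher, and the control and hairpin 5 differed by 0.06. PARP12 ranked 54 with hairpin 2, and its mean difference was 0.75 ± 1.14 (SD, n = 2 hairpins).

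PARP14, which combines macrodomains with a mono-ADP-ribosyltransferase domain, has 2 probe sets that behaved differently. The brighter one (224701_at) read 4.86 in the control, 6.16 with hairpin 2 and 4.87 with hairpin 5. Hairpin 2 exceeded the control 2.46-fold and hairpin 5 by 0.01 on the log2 scale, with rank 81 and a mean difference of 0.66 ± 0.91 (SD, n = 2 hairpins). The other (232610_at) read 2.53, 2.57 and 2.40 in the same order, all near the 25th percentile of the arrays (2.54 to 2.59), so its value may be background. As the mean of both probe sets the hairpin 2 difference of PARP14 was 0.67, under 2-fold.

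PARP10, a mono-ADP-ribosyltransferase first described as a partner of the MYC protein, was near the control with hairpin 2 on its brightest probe sets. 228669_x_at read 4.70 in the control, 4.75 with hairpin 2 and 5.08 with hairpin 5, and 226401_at read 4.64, 4.86 and 4.92. On both, hairpin 5 was the highest array, by 0.38 and 0.29 over the control, and hairpin 2 exceeded the control by 0.05 and 0.22. Another probe set (229350_x_at) read 3.47 in the control, 4.65 with hairpin 2 and 3.69 with hairpin 5. Here hairpin 2 exceeded the control 2.26-fold. The last (238083_at) read 3.998, 3.58 and 4.06, lowest with hairpin 2. The probe sets of PARP10 thus disagreed in size and direction with hairpin 2, and the rank of the gene there was 8018. The mean difference on the brightest was 0.22 ± 0.23 (SD, n = 2 hairpins).

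Counted by probe set, 5 of the 10 were at least 2-fold higher with hairpin 2 and 0 with hairpin 5, where 0.638% and 0.153% of all 41091 probe sets with 1 gene were. With hairpin 2, 9 of the 10 read above the control, the exception being 238083_at of PARP10. With hairpin 5, 7 did, none by more than 0.38. How many of all probe sets read above the control was not computed, so these counts say little about the members. Some signs turned with scaling. The brighter PARP14 probe set moved with hairpin 5 from 0.01 to −0.03 when arrays were centred on their medians. PARP12 moved with hairpin 5 from −0.06 to 0.02 with cyclic loess and 0.05 with quantile normalization. The brightest of PARP10 moved with hairpin 2 from 0.05 to −0.01 with quantile normalization.

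**Figure D1:**
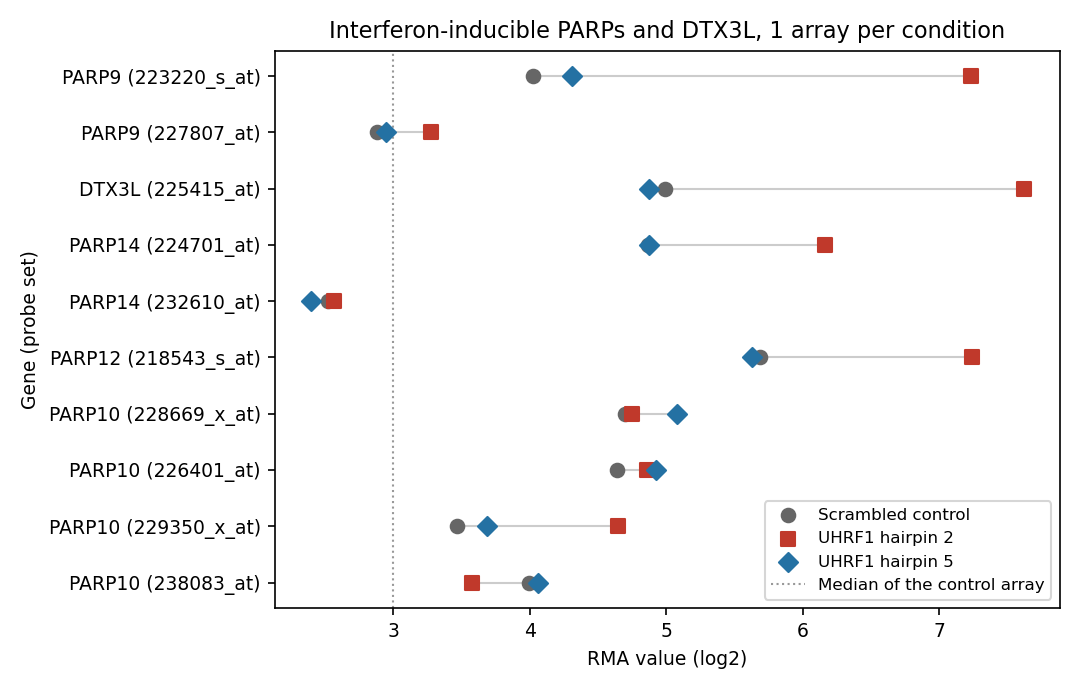
RMA values (log2, horizontal axis) of the 10 probe sets of the members on the scrambled control (circles), hairpin 2 (squares) and hairpin 5 (diamonds) arrays, 1 array each, with the control array's median dotted. On the brightest probe sets of PARP9, DTX3L, PARP14 and PARP12 the hairpin 2 square lies 1.30 to 3.21 right of the control, while hairpin 5 differs from it by at most 0.28.

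The nearest patterns among tested genes were found by the Euclidean distance between pairs of differences (hairpin 2 and hairpin 5, each minus the control) over the 3 arrays. For PARP9 (3.21 and 0.28) these were OAS1 (3.30 and 0.34), OASL (3.33 and 0.43), PRF1 (3.35 and 0.07), IFIH1 (3.42 and −0.02) and AQP3 (2.84 and 0.32). OAS1 makes the second messenger that activates RNase L, OASL is its catalytically inactive relative, and IFIH1 senses double-stranded RNA. PRF1 encodes perforin, the pore-forming protein of cytotoxic lymphocytes, and AQP3 a water and glycerol channel. For DTX3L (2.63 and −0.12) the nearest were SP110 (2.70 and −0.12), DDX60 (2.67 and −0.25), IRF9 (2.67 and −0.26), OAS3 (2.80 and −0.10) and KRT20 (2.85 and −0.13). IRF9 is the DNA-binding subunit of ISGF3, and KRT20 is a keratin of intestinal epithelium. This distance includes the hairpin 2 difference on which PARP9 and DTX3L were chosen. That the neighbours were high with hairpin 2 therefore follows from that choice. The level set for testing applies to the mean of the 3 arrays, hairpin 2 included. OAS1 (2.71 control, 3.05 hairpin 5), DDX60 (3.05 and 2.80) and KRT20 (2.77 and 2.64) reached it only through hairpin 2. With 3 arrays, nearness describes these values and carries no error. It also depends on the probe set: averaged over probe sets, the hairpin 2 difference was 1.22 for IFIH1, 1.54 for AQP3, 1.93 for OAS3 and 2.62 for OAS1.

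Many other interferon-stimulated genes were also higher with hairpin 2. In a reference list of 35 such genes without the members, 24 exceeded the control by at least 2-fold with hairpin 2 and 2 with hairpin 5, and the median differences were 1.60 and 0.17. Over all genes, 0.728% were at least 2-fold higher with hairpin 2 and 0.152% with hairpin 5. Those reference genes furthest from the control with hairpin 2 were IFIT1 (6.79), IFI27 (6.77) and IFITM1 (6.31), each more than PARP9. The 2 called with hairpin 5 were IFIT1 (2.19, rank 2 of all genes) and IFITM1 (1.51, rank 11), while IFI27 differed there by 0.23. Of the 35, 24 reached the level set for testing. IFI44 (1.60) and EPSTI1 (1.02) were called with hairpin 2 but lay below that level. Others below it were not called with hairpin 2, among them MX1 (0.39), RSAD2 (0.07), OAS2 (0.06), MX2 (−0.04) and SAMD9L (−0.50). The count with hairpin 2 was 19 when the probe sets of each gene were averaged and 21 with the probe set brightest in the control, and hairpin 5 kept a count of 2. HERC6, 1 of the 24 called with hairpin 2, lay at 1.02 and moved just under 2-fold with cyclic loess or quantile normalization. Of the 10 interferon signalling genes with a probe set of their own, 2 were at least 2-fold higher with hairpin 2. IRF9 read 6.22 in the control, 8.88 with hairpin 2 and 5.95 with hairpin 5, and IRF7, a factor that amplifies interferon production, read 4.49, 6.82 and 4.23. JAK1, a kinase of interferon signalling, differed by −0.54 and −0.53, and by −0.23 and −0.24 with its probe sets averaged. Whether these transcripts bear on the values of PARP9, DTX3L, PARP12 and PARP14 was not tested.

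**Figure D2:**
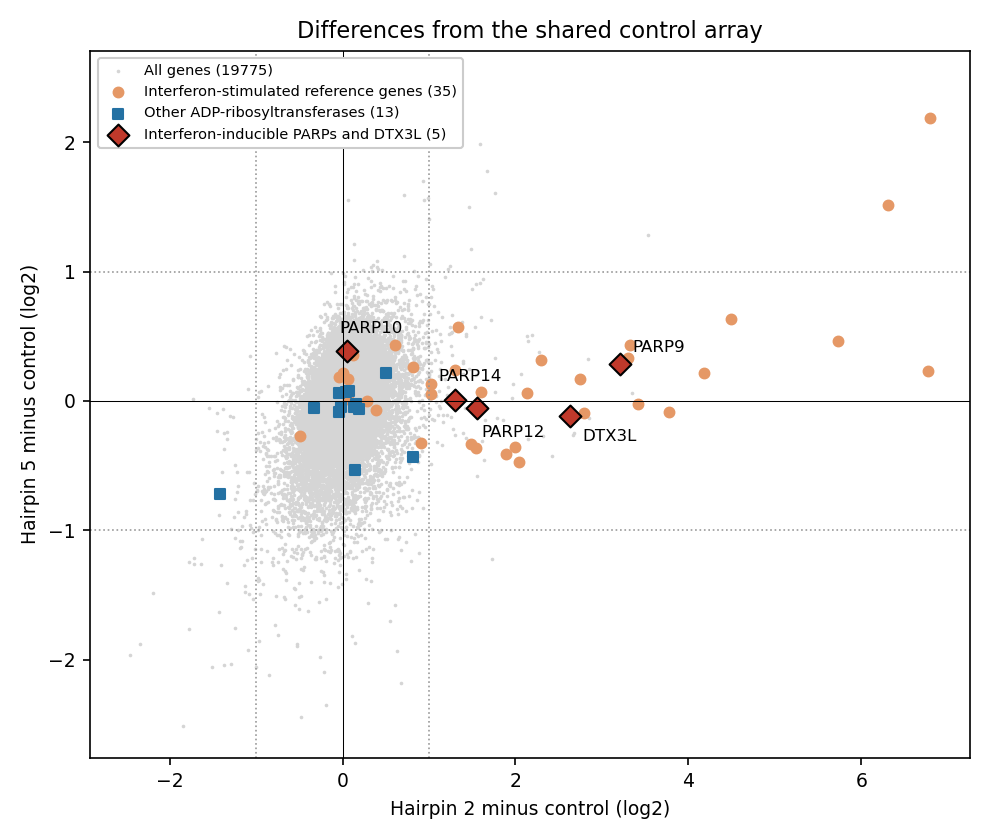
Difference from the control array with hairpin 2 (horizontal) against that with hairpin 5 (vertical), log2, for all 19775 genes, with 35 interferon-stimulated reference genes, 13 other ADP-ribosyltransferases and the 5 members marked; dotted lines mark 2-fold. PARP9, DTX3L, PARP12 and PARP14 lie right of the 2-fold line at hairpin 5 values between −0.12 and 0.28, among the reference genes, and PARP10 lies at 0.05 and 0.38. Both axes share the control array.

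The other ADP-ribosyltransferases stayed mostly near the control. Of 13 on the arrays, 0 were at least 2-fold higher with either hairpin, where 0.728% (hairpin 2) and 0.152% (hairpin 5) of all genes were. At least 2-fold lower were 1 with hairpin 2 and 0 with hairpin 5, where 0.364% and 1.17% of all genes were. Counts of 0 in lists this short lie near these shares and say little about the lists, here and below. The median differences of the 13 were 0.08 and −0.05. Treating the hairpins as replicates of UHRF1 depletion, limma with Benjamini-Hochberg adjustment called 0 of 11865 tested genes (0%), and hence none of the 11 tested here. The lowest adjusted p was 0.999, so this says nothing about whether a single gene changed, here or in the lists below. The control is a single array, so no p-value before adjustment is read for a single gene, in this list or in those below.

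TIPARP, a mono-ADP-ribosyltransferase induced by the aryl hydrocarbon receptor, was the family member furthest below the control. It read 6.76 in the control, 5.35 with hairpin 2 and 6.05 with hairpin 5, 2.67-fold and 1.64-fold lower. ZC3HAV1, the zinc finger antiviral protein, read 6.80 in the control, 7.62 with hairpin 2 and 6.37 with hairpin 5. It was the largest positive difference with hairpin 2 in this list (0.81), and under 2-fold. Its dimmer probe sets also read highest or second highest with hairpin 2. With all probe sets averaged, hairpin 5 turned from −0.43 to 0.10. Of the dimmer ones, 213051_at was 0.88 above the control with hairpin 2 and 0.38 with hairpin 5, and 220104_at 0.30 and 0.36.

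The enzymes of DNA repair were close to the control. PARP1 differed by 0.08 with both hairpins, PARP2 by 0.15 with hairpin 2 and −0.03 with hairpin 5, and PARP3 by 0.04 and 0.07. The tankyrases, which extend chains on regulators of Wnt signalling and telomeres, differed by 0.15 and −0.53 for TNKS and by 0.50 and 0.22 for TNKS2. PARP4, the vault-associated enzyme, differed by 0.13 and −0.05, PARP6 by 0.18 and −0.06, PARP8 by −0.34 and −0.06, and PARP16, which resides in the endoplasmic reticulum, by −0.02 and −0.04. With probe sets averaged, TNKS differed by −0.08 and −0.21, TNKS2 by 0.13 and 0.11 and PARP6 by 0.38 and 0.28. The signs of PARP2, PARP4 and PARP6 with hairpin 5 and of PARP16 with hairpin 2 turned under some scalings. PARP11 read 2.65 to 2.75 and PARP15 2.39 to 2.47 on all arrays, too near the bulk of the arrays to say whether they were expressed.

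The Deltex relatives of DTX3L were all under 2-fold from the control. DTX4 read 3.92 in the control, 4.37 with hairpin 2 and 4.68 with hairpin 5, and DTX2 differed by 0.13 and 0.13. DTX3 differed by −0.28 and −0.23 on its brightest probe set, and averaging its probe sets gave 0.02 and 0.07. DTX1 differed by 0.11 and −0.28 and was below the tested level. The median of the 4 was 0.12 with hairpin 2 and −0.05 with hairpin 5, and 0 reached 2-fold in either direction. Of all genes, 0.728% were at least 2-fold higher and 0.364% lower with hairpin 2, and 0.152% and 1.17% with hairpin 5.

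**Figure D3:**
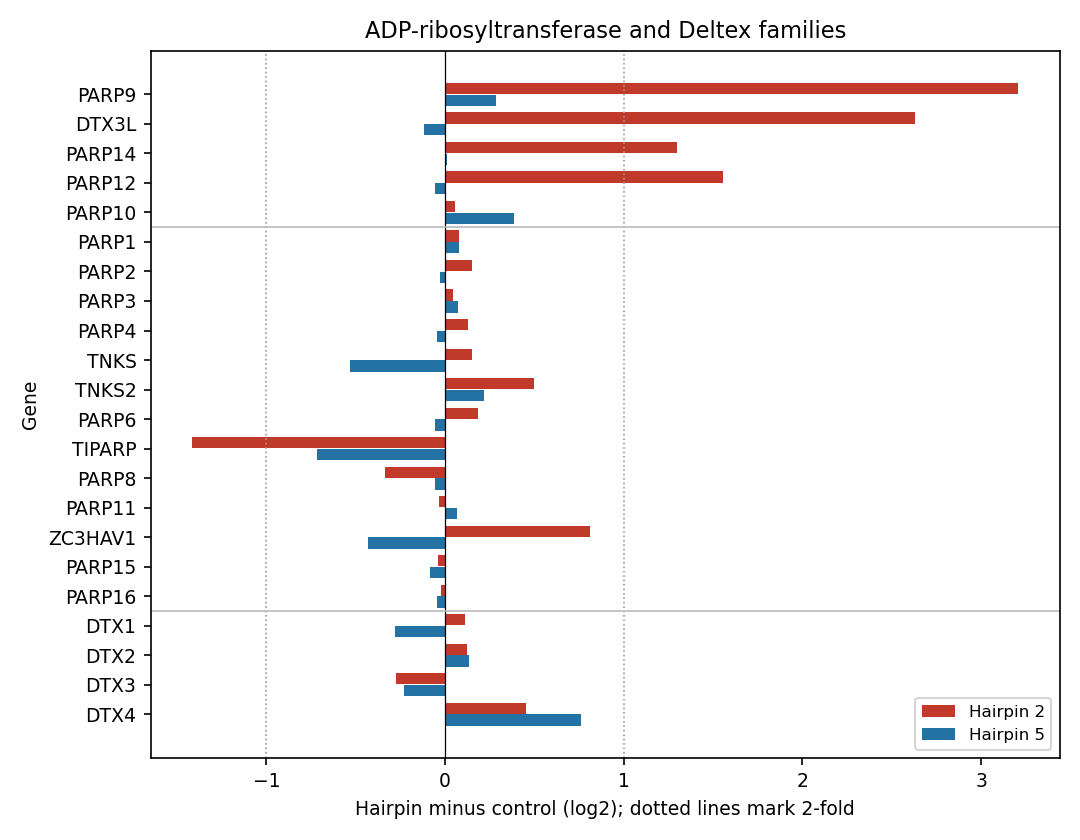
Difference from the control array (log2, bars from 0) with hairpin 2 and hairpin 5 for the 5 members (top block), 13 other ADP-ribosyltransferases (middle) and 4 Deltex genes (bottom), 1 array per hairpin and no error bars. Bars past the 2-fold lines are those of PARP9, DTX3L, PARP14 and PARP12 on the right and of TIPARP (−1.42) on the left, all with hairpin 2.

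Genes that remove or read ADP-ribose were all under 2-fold from the control. Of 7 removal genes with a probe set, 0 reached 2-fold in either direction with either hairpin, and the median differences were −0.08 and −0.08. The furthest with hairpin 2 were the hydrolase ADPRS (0.36 and −0.08), the phosphodiesterase NUDT16 (0.33 and −0.07) and the macrodomain hydrolase MACROD1 (−0.31 and −0.62). Among 7 readers and cofactors, also 0 reached 2-fold, with medians of 0.16 and −0.01. Both counts lie near the shares of all genes, 0.728% higher and 0.364% lower with hairpin 2, and 0.152% and 1.17% with hairpin 5. RNF146, a ubiquitin ligase that recognises ADP-ribose chains, differed by 0.73 and −0.01, the remodeller CHD1L by −0.50 and −0.39, and the histone variant gene MACROH2A2 by 0.36 and 0.24. Averaging the probe sets gave 0.07 for NUDT16, −0.12 for MACROD1, 0.46 for RNF146 and −0.20 for CHD1L with hairpin 2.

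The supply of NAD+, the substrate of these enzymes, was followed through 12 genes, of which 0 reached 2-fold with either hairpin (medians −0.01 and 0.14). With hairpin 2, 0.728% of all genes were that much higher and 0.364% lower, and with hairpin 5, 0.152% and 1.17%. NAMPT, the rate-limiting enzyme of NAD+ salvage, read 6.86 in the control, 6.42 with hairpin 2 and 6.15 with hairpin 5. NAPRT, which uses nicotinic acid, differed by 0.60 and 0.12, and NMNAT1, the nuclear enzyme that completes NAD+, by 0.41 and 0.22. Averaging the probe sets of each gene changed these values. NAMPT then turned to 0.07 with hairpin 2 and was −0.38 with hairpin 5, NMNAT1 differed by 0.06 and −0.05, and NAPRT by 0.20 with hairpin 2.

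Within the chromosome 3 cluster, PARP9, DTX3L and PARP14 were at least 2-fold higher with hairpin 2, the contrast that chose PARP9 and DTX3L. Of the 5 protein-coding genes on each side of the cluster, 9 had a probe set of their own. With hairpin 2, 0 of them were at least 2-fold higher, where 0.728% of all genes were, so this count says little about the neighbourhood. Their differences with hairpin 2 lay between −1.85 and 0.11. The lowest was CSTA, a cysteine protease inhibitor of epithelia, which read 8.17 in the control, 6.32 with hairpin 2 and 5.66 with hairpin 5. KPNA1, a nuclear import receptor and the next gene to PARP9, differed by −0.07 and −0.23 (0.19 with hairpin 2 as its averaged probe sets), and HSPBAP1, beyond PARP14, by −0.16 and −0.53. The others, MIX23, FAM162A, WDR5B, SLC49A4, SEMA5B and SEC22A, lay with hairpin 2 between −0.28 for SEMA5B and 0.11 for SLC49A4. PARP15 lies between DTX3L and PARP14, and differed by −0.04 and −0.08 at a level near the bulk of the arrays. With hairpin 5 all 9 flanking genes read below the control, by 0.12 to 2.51. The share of all genes below the control was not computed, so this count says little about the neighbourhood. CSTA was the only flanking gene at least 2-fold lower, with both hairpins, where 0.364% (hairpin 2) and 1.17% (hairpin 5) of all genes were.

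**Figure D4:**
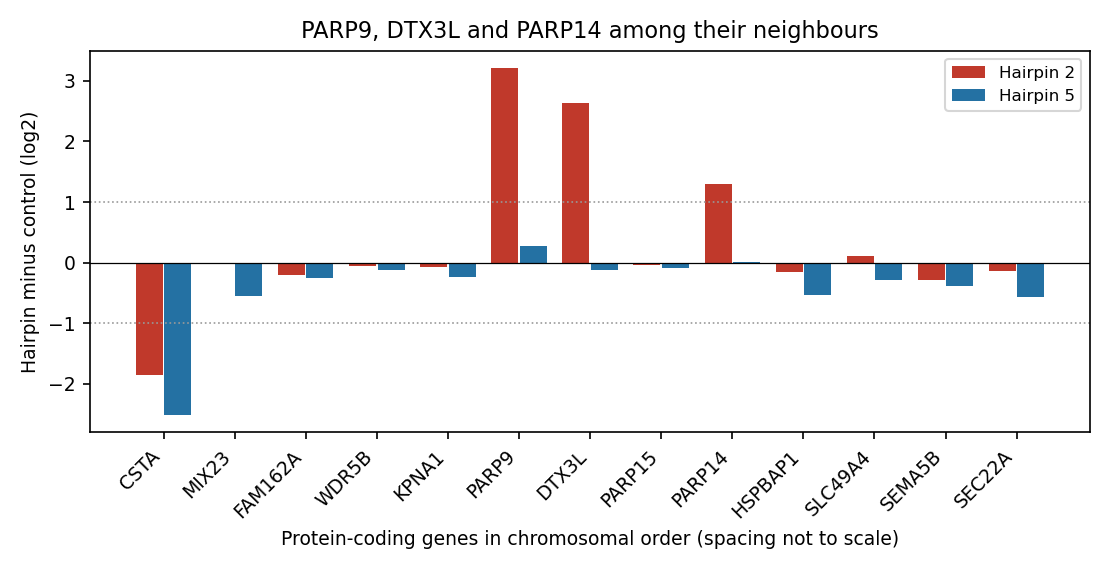
Difference from the control array (log2, bars from 0) for protein-coding genes of chromosome 3 in their order around the cluster, spacing not to scale, 1 array per hairpin. PARP9 (3.21), DTX3L (2.63) and PARP14 (1.30) are the tall hairpin 2 bars; the flanking genes reach at most 0.11, and CSTA is lower with both hairpins.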

How the data were processed

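RNA of 3 cultures was measured on single-colour Affymetrix arrays, 1 per condition. The authors deposited log2 values. According to the submitters' processing notes these came from RMA in Affymetrix Expression Console. Versions, settings and centring are not given in the sources used here. A log base of 2 is taken from their span (1.95 to 14.1 on the control array), and there are no detection calls. The number of arrays limits the precision.

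Of 54613 probe sets, the platform annotation gives 1 gene to 41091, several to 1801 and none to 11721. Symbols were checked by gene identifier in a RefSeq table (GRCh38.p14), which matched 41037. Genes outside these were not analysed here.

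Each gene was represented by its brightest probe set by mean. Differences are hairpin minus control, and "called" means at least 2-fold. For counts over all genes, limma 3.58.1 in R 4.3.3 (lmFit, eBayes, two-sided, Benjamini-Hochberg over 11865 genes at or above the 40th percentile of means) took the hairpins as 2 replicates, with 1 residual degree of freedom. The fit was tested on simulated data in which all genes shared a single spread and the changed genes moved alike with both hairpins. The measured genes did not all behave so, and that test does not carry over to them. The lone control is assumed to vary like the hairpins, and the p-values of limma measure the spread between 2 different hairpins only.

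Members, lists and the rule for named genes were chosen with earlier results of these data known. Named were all members, UHRF1, every gene of the family lists, the 3 genes of each other pathway list furthest from the control with hairpin 2, the 5 flanking genes on each side of the cluster, and the 5 nearest patterns to PARP9 and DTX3L. Cell type markers were named outside this rule, after their values were seen. Alternatives covered the choice of probe set, scaling, fold, filter, eBayes setting and leaving out a hairpin.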

Additional observations from a re-analysis of the deposited data

How the results depend on the processing

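The members' differences from the control were recomputed under 60 combinations of member, hairpin and alternative. In 58 they kept their side of 2-fold and moved by less than 1.5-fold. The exceptions came from averaging the probe sets of a gene, where the hairpin 2 difference was 1.80 for PARP9 and 0.67 for PARP14. The count of member genes at least 2-fold higher with hairpin 2 was 4 in the main setting. It was 3 with the probe sets of each gene averaged and 2 at a 3-fold threshold. The count with hairpin 5 was 0 under every alternative run. With an intensity trend limma called 1 gene rather than 0 (HSPE1, adjusted p = 0.0475), and 0 under the other settings run. Leaving out 1 hairpin gave the mean difference of DTX3L a range of −0.117 to 2.63. For PARP9 it ran from 0.283 to 3.21, for PARP14 from 0.01 to 1.30 and for PARP12 from −0.056 to 1.56, the lower value without hairpin 2 each time. The scalings moved the median of all genes by at most 0.042 in size. Depth is not measured on these arrays, and values near the array medians may be background.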

Other observations

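The ISRE core that the printed stretches of PARP9, DTX3L, PARP14 and PARP12 hold was set against the 15384 genes on the arrays that have a promoter window; the other 4391 had none here. Of 613 genes on the arrays with a match in at least 1 promoter window, 25 (4.08%) were at least 2-fold higher with hairpin 2, against 94 of 14771 genes (0.636%) without one. With hairpin 5 these were 3 genes (0.489%) and 21 genes (0.142%). For the gamma-activated site the shares with hairpin 2 were 18 of 1380 genes (1.3%) with a match and 101 of 14004 (0.721%) without, and with hairpin 5 they were 2 (0.145%) and 22 (0.157%). These shares describe 1 array per hairpin and include PARP9, DTX3L, PARP14 and PARP12, which were chosen on this contrast, and not PARP10; they were not tested.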
